A study of Mus musculus with 12 samples.

Results

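Neurexins, neuroligins and Lrrtm proteins join the membranes of a sending and a receiving neuron across the synapse. The genes described here are 2 neurexins (Nrxn2 and Nrxn3), 3 neuroligins (Nlgn1, Nlgn2 and Nlgn3) and 4 Lrrtm genes (Lrrtm1, Lrrtm2, Lrrtm3 and Lrrtm4), found by symbol among 23079 genes of a count table. All 9 passed the filter on low counts and were tested with 14732 genes in all. They were measured by RNA sequencing in sorted neurons of the pontine nucleus, a hindbrain relay from the cortex to the cerebellum, from CD-1 mouse embryos at E18.5.

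Hoxa5tdTomato (n = 3) names neurons labelled by tdTomato, a red fluorescent protein, through the homeobox gene Hoxa5; its columns are named Hoxa5_cre. Math1Hoxa5-IRES-GFP (n = 3) names Math1, a gene of the rhombic lip lineage from which pontine neurons arise, together with Hoxa5 and GFP; its columns are named Math1_Cag_lsl_Hoxa5. Math1tdTomato (n = 6) holds the references of the series design, and all 12 samples carry the strain CD-1. Of the references, 3 columns are named Math1_creErt2 and 3 Math1_tdT; these are called the creErt2 and tdT references. From the words of the names, the creErt2 references were set beside Hoxa5tdTomato (set 1) and the tdT references beside Math1Hoxa5-IRES-GFP (set 2). No name states this pairing, and every value within a set rests on it. Nothing states that replicates came from separate embryos or litters, whether embryos were pooled, or when any label was induced, so p-values measure the spread between these samples, which may be technical.

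Set 1 libraries held 9973484 to 13302076 counts and set 2 libraries 22355961 to 29820776, and the effects of depth and of set cannot be told apart. Hoxa5 stood at 119 to 222 CPM (counts scaled to 1 common library size) in Hoxa5tdTomato and at 4.35 to 32.2 CPM in the 6 references. In the libraries labelled Math1Hoxa5-IRES-GFP it stood at 9.73, 16.8 and 82.0 CPM, and 2 of these 3 values lay within the range of the references; every direction given below for that group carries this limit. Math1Hoxa5-IRES-GFP replicate 3 stood apart, with a lowest correlation of log2 CPM with its group of 0.860, against 0.926 to 0.943 among replicates of the other groups. Of 10 pontine lineage genes, Nfib, Zic1, Slc17a6, Pax6 and Barhl1 stood at 105 CPM or more in all 12 libraries. Among the others, Atoh1, the gene called Math1 in the labels, ran from 0.140 to 19.2 CPM, while Pou4f1 (at most 6.82 CPM), Olig3 (at most 6.45 CPM, at 0 in 2 libraries) and Slc17a7 (at most 1.08 CPM, at 0 in 3) were at or near 0 in some libraries. Endothelial markers (10 genes) summed to 115 to 221 CPM in Hoxa5tdTomato, against 1.21 to 31.1 CPM in the references, and pericyte markers (8 genes) to 115 to 237 against 2.00 to 27.4 CPM. In the libraries labelled Math1Hoxa5-IRES-GFP the endothelial sums were 0.419, 41.5 and 0.752 CPM and the pericyte sums 17.6, 65.4 and 5.22 CPM. Replicate 2 of that group thus lay above all references in both sums, and their part in its values was not tested. The 10 lineage genes summed to 4543 to 5047 CPM in Hoxa5tdTomato, against 6462 to 8645 CPM in the references. Most of this gap lay in Nfib (3095 CPM on average, against 5502 CPM), and without it the sums overlapped, at 1606 to 1779 CPM against 1638 to 2356 CPM.

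Neurexins sit mainly on the presynaptic membrane, where long and short forms arise from separate promoters and many forms from alternative splicing. Neuroligins and Lrrtm proteins sit on the postsynaptic membrane and bind neurexins from across the cleft. Nlgn1 is best known from excitatory synapses, Nlgn2 from inhibitory synapses and Nlgn3 from both kinds. Lrrtm proteins carry leucine-rich repeats and are best known from excitatory synapses, where they help to hold AMPA receptors. Their tails bind scaffold proteins of the synapse, and the protein Mdga2 covers neuroligins and keeps neurexins off.

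The level of each gene in the references was compared per length, as CPM per kb of the gene length in the table, over 6 libraries. Nlgn2 (35.8 ± 8.71 CPM per kb) and Nlgn3 (31.1 ± 5.84) were highest, followed by Lrrtm2 (19.9 ± 5.43), Nrxn2 (12.2 ± 0.702), Nlgn1 (10.2 ± 3.20), Lrrtm1 (8.10 ± 2.68), Lrrtm4 (7.70 ± 2.81), Nrxn3 (4.74 ± 0.910) and Lrrtm3 (0.856 ± 0.462; SD, n = 6). Between neighbours in this order, the ranges over libraries were separate only between Lrrtm2 and Nrxn2 and between Nrxn3 and Lrrtm3; all other neighbours overlapped. Nlgn2 lay above 89.3% of the tested genes and Lrrtm3 above 17.8%. The order depends on the deposited lengths: the table gives Nlgn1 7245 bases and Nlgn3 5688, while GENCODE exons of these genes cover 13422 and 9271 bases.

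**Figure D1:**
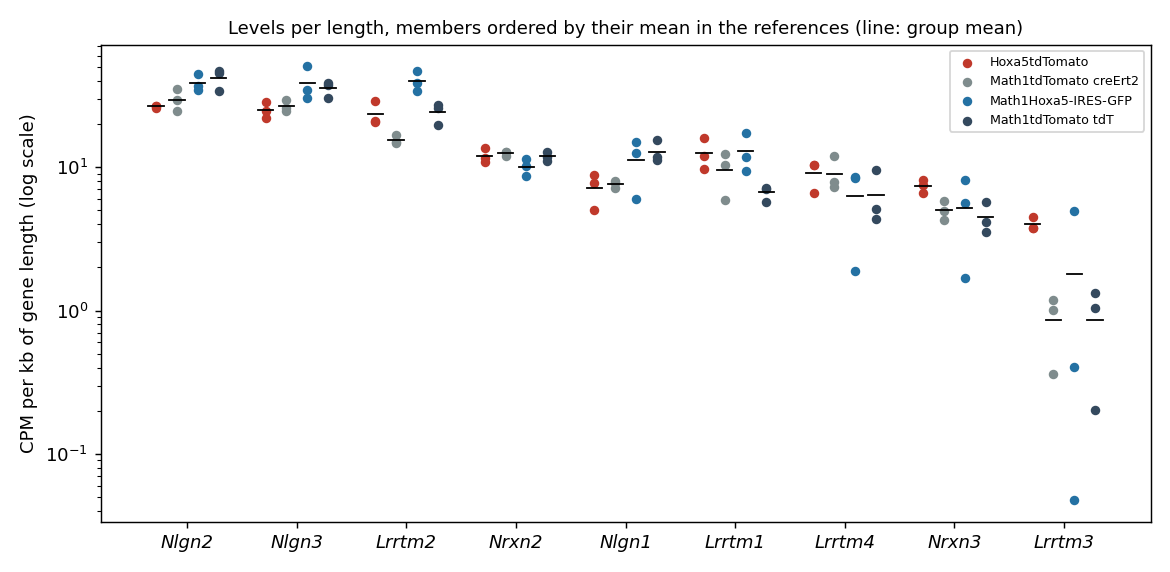
Level per length (CPM per kb, log scale) of the 9 genes in each library, ordered by their mean in the 6 references; points are libraries and lines are group means (n = 3 each). The 2 neuroligins Nlgn2 and Nlgn3 stand highest in the references and Lrrtm3 lowest, with its 3 Hoxa5tdTomato libraries between 3.77 and 4.48 CPM per kb and no reference above 1.33.

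Lrrtm2, which encodes a postsynaptic ligand of neurexins, was the 1 gene of the 9 that passed the test in either comparison with the 6 references. It stood at 267, 192 and 220.1 CPM in the libraries labelled Math1Hoxa5-IRES-GFP, against 112, 146 and 155 CPM in the tdT references and 95.6, 84.0 and 85.6 CPM in the creErt2 references. All 3 of these libraries lay above all 6 references, and the tdT references all lay above the creErt2 references. The mean was 226 ± 37.5 CPM (SD, n = 3) against 113 ± 30.8 CPM (SD, n = 6), a log2 fold change of 1.00 ± 0.21 (SE) with an adjusted p of 0.0162 in edgeR. Of all tested genes 1.84% were called in this comparison and 1.3% were called as higher (191 higher and 80 lower; 105 and 94 with library size as the only scaling), and 1 of the 9 genes was called; in 3.11% of tested genes all 3 libraries lay above all 6 references. In bulk RNA, fewer cells of a type and less RNA per cell cannot be told apart.

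Against the tdT references alone, in a fit of 4 groups, Lrrtm2 was at 0.72 ± 0.19, again with no overlap. The adjusted p was 0.0954, above the threshold, in a comparison that called 0.862% of tested genes and 0 of the 9 (2 at an unadjusted p under 0.05, as were 13.7% of tested genes). Without Math1Hoxa5-IRES-GFP replicate 1 the change against all references was 0.87 (adjusted p = 0.0508). On the 6 libraries of set 2 alone Lrrtm2 did not pass (0.73, adjusted p = 0.502), where 0.0746% of tested genes were called. DESeq2, which called 5.69% of its tested genes, called Lrrtm2 alone of the 8 to which it gave an adjusted p (adjusted p = 0.000695). Neuronal markers (6 genes) summed to 5788 to 6144 CPM in these libraries, against 5517 to 6059.5 CPM in the tdT references and 4513 to 5075 CPM in the creErt2 references, and their part in the difference was not tested. Astrocyte and radial glia markers (9 genes) summed to 1055 to 1357 CPM, against 655 to 1113 CPM over the 6 references; 3 of the 9 had a higher mean and 6 a lower one, with a median change of -0.63 over the 8 tested. Without Ptprz1 (397 CPM on average, against 142 CPM) the sums were 554 to 896 CPM, against 566 to 961 CPM, and their part in the difference was not tested either.

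In Hoxa5tdTomato Lrrtm2 stood at 163, 117 and 119.8 CPM, against 95.6, 84.0 and 85.6 CPM in the creErt2 references. The 3 libraries lay above these references and overlapped the tdT references. The change was 0.24 ± 0.21 against all 6 (adjusted p = 0.697) and 0.59 ± 0.19 within the set (adjusted p = 0.268). Fitted on the 6 libraries of set 1 alone it was 0.62 ± 0.15 with an adjusted p of 0.0170. The creErt2 references, taken over the tdT references, were at -0.64 ± 0.19 (adjusted p = 0.121), so the position of Lrrtm2 in Hoxa5tdTomato depended on which references it was read against.

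**Figure D2:**
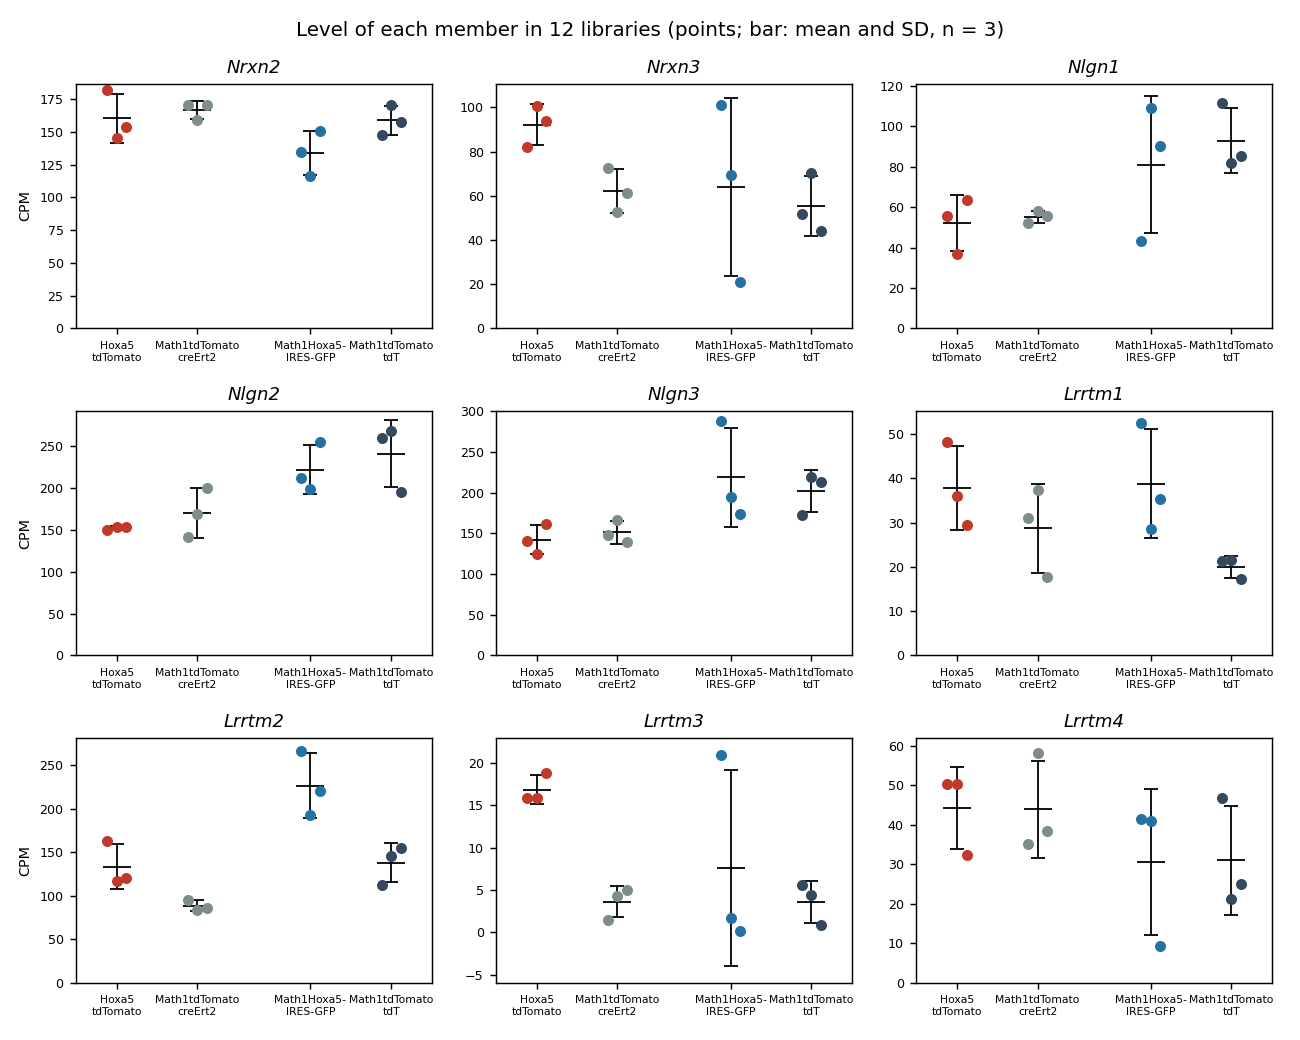
CPM of the 9 genes in each of the 12 libraries (points), with the mean and SD of each group (bars, n = 3); the references are shown beside the group of their set. Lrrtm2 in the libraries labelled Math1Hoxa5-IRES-GFP (192 to 267 CPM) lies above all references, and Lrrtm3 in Hoxa5tdTomato (15.8 to 18.8 CPM) likewise.

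Lrrtm3, the member of its family with the lowest reference level, had the widest gap in Hoxa5tdTomato. It stood at 15.8, 15.9 and 18.8 CPM there, against 1.51, 4.26 and 4.98 CPM in the creErt2 references and 5.60, 4.39 and 0.857 CPM in the tdT references. All 3 libraries lay above all 6 references, and the values within Hoxa5tdTomato were close to each other. The log2 fold change was 2.22 ± 0.84 with an adjusted p of 0.210, which missed the threshold. In the libraries labelled Math1Hoxa5-IRES-GFP it stood at 21.0, 1.71 and 0.201 CPM, so that this group held both the highest and the lowest value of all 12 libraries. These values correspond to 450, 38 and 4 counts, at 1.08 ± 0.85 on the log2 scale (adjusted p = 0.557), and to -1.90 without replicate 1.

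The spread of the last group entered the test of the first, because all libraries shared an estimate of the spread. Fitted on set 1 alone, Lrrtm3 in Hoxa5tdTomato was at 2.26 ± 0.45 (adjusted p = 0.00364), on the 9 libraries of Hoxa5tdTomato and the references at 2.25 ± 0.49 (adjusted p = 0.0166), and without Math1Hoxa5-IRES-GFP replicate 3 at 2.22 ± 0.61 (adjusted p = 0.0428). DESeq2 gave Lrrtm3 no adjusted p. The endothelial and pericyte sums were high in the same 3 Hoxa5tdTomato libraries, and their part in the Lrrtm3 result was not tested. Means were also higher there for 8 of 8 oligodendrocyte, 6 of 6 microglia and 5 of 5 dividing-cell genes, though these sums overlapped the references. Of 9 astrocyte and radial glia genes 6 had a higher mean and 3 a lower one, with Ptprz1 at 424 CPM against 142 CPM. The part of these lists was not tested either.

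Lrrtm1, another postsynaptic neurexin ligand, stood at 48.1, 36.0 and 29.4 CPM in Hoxa5tdTomato, against 31.0, 37.3 and 17.7 CPM in the creErt2 references, and these groups overlapped. It stood, in the libraries labelled Math1Hoxa5-IRES-GFP, at 52.4, 28.5 and 35.4 CPM, against 21.3, 21.6 and 17.1 CPM in the tdT references, and these groups did not overlap. With Lrrtm2, this made 2 of the 9 genes above all tdT references, which held for 6.01% of tested genes. Within the sets the changes were 0.40 ± 0.34 (adjusted p = 0.859) and 0.95 ± 0.34 (adjusted p = 0.236), and against all 6 references 0.64 ± 0.30 (adjusted p = 0.346) and 0.67 ± 0.30 (adjusted p = 0.274). Lrrtm4, which also binds heparan sulfate proteoglycans, had 32.3 to 50.3 CPM in Hoxa5tdTomato and 9.18 to 41.4 CPM in the libraries labelled Math1Hoxa5-IRES-GFP, against 21.3 to 58.1 CPM in the references. Its groups overlapped in both comparisons, with changes of 0.24 ± 0.40 (adjusted p = 0.857) and -0.29 ± 0.41 (adjusted p = 0.760).

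The makeup of the Lrrtm family was compared as shares of its summed CPM per kb. Lrrtm3 made up 6.40 to 10.7% of the sum in Hoxa5tdTomato, against 0.532 to 3.94% in the references, and the groups did not overlap. Lrrtm2 made up 66.4% ± 6.89 in the libraries labelled Math1Hoxa5-IRES-GFP (SD, n = 3), against 63.6% ± 9.90 in the tdT references and 45.2% ± 7.24 in the creErt2 references (SD, n = 3 each). The sum itself was 49.2 ± 8.68 CPM per kb in Hoxa5tdTomato and 60.9 ± 14.8 in the libraries labelled Math1Hoxa5-IRES-GFP, against 36.6 ± 3.66 in the 6 references. Its lowest value in each of these groups, 42.0 and 52.2 CPM per kb, lay above the highest reference value of 40.2. These sums were not tested.

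Lrrtm1, Lrrtm2 and Lrrtm3 lie inside alpha-catenin genes, which encode proteins that tie cadherins to actin, on the opposite strand. Lrrtm1 (chr6:77242689-77257791, plus strand, GRCm38) lies inside Ctnna2, Lrrtm2 inside Ctnna1 and Lrrtm3 (chr10:63928472-64090277, minus strand) inside Ctnna3. Lrrtm2 shares 95 exon bases with Ctnna1, 1.58% of its exons, and the other pairs share none; the strand setting of the counts is not given in the sources used here. Ctnna1 stood at 36.2, 27.6 and 22.6 CPM in the libraries labelled Math1Hoxa5-IRES-GFP, against 38.2, 50.0 and 27.1 CPM in the tdT references. These groups overlapped, with a change of -0.17 ± 0.33 against all 6 references (adjusted p = 0.838), beside the 1.00 of Lrrtm2. Ctnna2 was at 0.41 ± 0.20 in the same comparison (adjusted p = 0.312) with its highest value of 446 CPM in replicate 3, and at 0.06 ± 0.20 in Hoxa5tdTomato (adjusted p = 0.945). Ctnna3 was at 0 in 9 of the 12 libraries and at 0.269 and 0.274 CPM in Hoxa5tdTomato replicates 2 and 3 and 0.0450 CPM in Math1Hoxa5-IRES-GFP replicate 2.

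**Figure D3:**
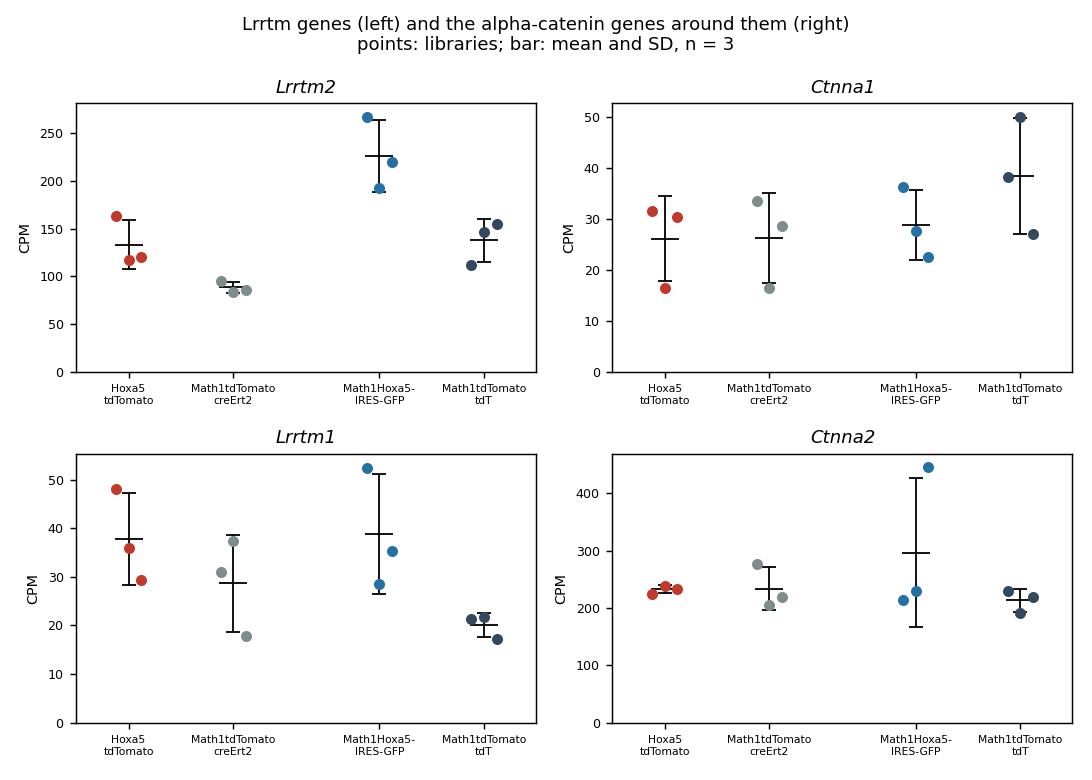
CPM of Lrrtm2 and Lrrtm1 (left) and of Ctnna1 and Ctnna2, the alpha-catenin genes around them (right), in each library (points), with the mean and SD of each group (bars, n = 3). Ctnna1 overlaps between the libraries labelled Math1Hoxa5-IRES-GFP (22.6 to 36.2 CPM) and the tdT references (27.1 to 50.0 CPM), where Lrrtm2 does not.

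Of the neurexins, Nrxn3 (chr12:88722876-90334935, plus strand) stood at 82.1, 101 and 93.7 CPM in Hoxa5tdTomato, against 72.4, 52.6 and 61.1 CPM in the creErt2 references and 51.6, 70.5 and 44.0 CPM in the tdT references. All 3 libraries lay above all 6 references. The change was 0.65 ± 0.32 (adjusted p = 0.368) and did not pass. It was 0.57 ± 0.39 within the set (adjusted p = 0.779), and it passed in the fits without the other group, at 0.60 ± 0.17 on set 1 alone (adjusted p = 0.0354) and 0.68 ± 0.18 on the 9 libraries (adjusted p = 0.0413). In the libraries labelled Math1Hoxa5-IRES-GFP Nrxn3 stood at 101, 69.4 and 21.0 CPM, the highest and the lowest of all 12 libraries among them, at 0.12 ± 0.33 (adjusted p = 0.890).

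Nrxn2 (chr19:6418731-6544169, plus strand) stood at 182, 146 and 154 CPM in Hoxa5tdTomato and at 135, 116 and 151 CPM in the libraries labelled Math1Hoxa5-IRES-GFP, against 148 to 171 CPM in the references. Its groups overlapped in both comparisons. The changes were -0.02 ± 0.14 (adjusted p = 0.973) and -0.28 ± 0.15 (adjusted p = 0.347), and the first was close to 0 and above it in 8 of 21 alternative settings. Of the summed CPM per kb of these 2 neurexins, Nrxn3 made up 38.3% ± 5.08 in Hoxa5tdTomato, against 27.8% ± 3.05 in the references (SD, n = 3 and 6). The lowest share in Hoxa5tdTomato was 32.7% and the highest in the references 31.3%, so the groups did not overlap; in the libraries labelled Math1Hoxa5-IRES-GFP the share ran from 13.0 to 44.6%.

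Counted over the 9 genes, Hoxa5tdTomato had 0 past the threshold against the 6 references, where 1.73% of tested genes were called (124 higher and 131 lower; 170 and 70 with library size as the only scaling). At an unadjusted p under 0.05 there were 2 (Lrrtm3 and Nlgn2), beside 14.6% of all tested genes, and DESeq2, which called 4.43% of its tested genes, called 0 of the 8 to which it gave an adjusted p. In 2 of 9 (Nrxn3 and Lrrtm3) all 3 libraries lay above all references, which held for 7.15% of tested genes. Within set 1 this held for 3 of 9 (with Lrrtm2 added), against 12.7% of tested genes. The fit on set 1 alone called these 3 genes as higher, where it called 4.18% of tested genes as higher and 7.19% in all. The fit on the 9 libraries called Nrxn3 and Lrrtm3, with 5.27% of tested genes called, and the fit without Math1Hoxa5-IRES-GFP replicate 3 called Lrrtm3, with 4.86%. Within set 1 in the fit of 4 groups 0.557% of tested genes and 0 of the 9 were called by edgeR (1 of the 9 at an unadjusted p under 0.05, as were 8.91% of tested genes).

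The RefSeq table of promoters (GRCm38.p6) held windows for 6 of the 9 genes, and those of Lrrtm3 and Nrxn3 are shown because these genes lay above all references in Hoxa5tdTomato. Each line gives the 250 bases before an annotated start, on the gene's strand, with each match to TAAT, a core bound by many homeodomain proteins, or its reverse complement ATTA in capitals.
Lrrtm3 (chr10:64090256-64090505, minus strand): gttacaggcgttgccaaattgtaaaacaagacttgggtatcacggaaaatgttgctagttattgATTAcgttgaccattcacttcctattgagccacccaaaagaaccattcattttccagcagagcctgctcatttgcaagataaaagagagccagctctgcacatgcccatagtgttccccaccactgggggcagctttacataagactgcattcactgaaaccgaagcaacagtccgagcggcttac
Nrxn3 (chr12:88794254-88794503, plus strand): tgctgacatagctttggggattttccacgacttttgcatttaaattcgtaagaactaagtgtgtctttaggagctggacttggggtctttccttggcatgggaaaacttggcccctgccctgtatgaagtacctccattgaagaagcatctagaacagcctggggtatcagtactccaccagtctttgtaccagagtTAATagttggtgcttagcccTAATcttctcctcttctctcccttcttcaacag
Nrxn3 (chr12:88953140-88953389, plus strand): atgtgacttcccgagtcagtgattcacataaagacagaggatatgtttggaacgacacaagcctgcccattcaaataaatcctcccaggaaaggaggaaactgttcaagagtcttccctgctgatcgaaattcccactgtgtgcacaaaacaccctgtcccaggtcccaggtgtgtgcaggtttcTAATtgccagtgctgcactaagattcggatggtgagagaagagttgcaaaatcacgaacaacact
Nrxn3 (chr12:89812233-89812482, plus strand): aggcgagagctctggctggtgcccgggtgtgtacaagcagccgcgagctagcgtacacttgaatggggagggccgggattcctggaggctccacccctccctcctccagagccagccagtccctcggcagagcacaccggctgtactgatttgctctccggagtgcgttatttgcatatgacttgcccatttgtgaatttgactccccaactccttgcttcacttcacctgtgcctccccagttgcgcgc
The Lrrtm3 window held 1 match, 186 bases before the start, and the Nrxn3 windows held 2, 1 and 0. Of the 10 windows of these genes 6 held TAAT on either strand, which 54.9% of 32851 windows of the same length held. None of the 10 held TGATNNAT, a form that Hox and Pbx proteins bind together, which 7.68% of all windows held. A match describes these letters only, and the counts of a gene do not tell its starts apart.

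On average the neuroligins stood lower in set 1 than in set 2, in both groups of each set. Nlgn1 (chr3:25426215-26332460, minus strand) had 55.8, 36.6 and 63.8 CPM in Hoxa5tdTomato, against 52.0, 57.9 and 55.8 CPM in the creErt2 references. In the libraries labelled Math1Hoxa5-IRES-GFP it had 43.4, 109 and 90.5 CPM, against 112, 81.7 and 85.5 CPM in the tdT references. Within each set the groups overlapped, at -0.09 ± 0.30 (adjusted p = 0.989) and -0.20 ± 0.30 (adjusted p = 0.821). The creErt2 references all lay below the tdT references, at -0.75 ± 0.30 (adjusted p = 0.285).

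Nlgn2 (chr11:69823122-69837784, minus strand) had 149.7, 154 and 154 CPM in Hoxa5tdTomato, against 141, 169 and 200.3 CPM in the creErt2 references. The libraries labelled Math1Hoxa5-IRES-GFP held 212, 199 and 256 CPM, against 260.2, 268 and 196 CPM in the tdT references. Both pairs overlapped, with changes of -0.16 ± 0.17 (adjusted p = 0.922) and -0.12 ± 0.17 (adjusted p = 0.815) within the sets. Read against all 6 references the change in Hoxa5tdTomato was -0.43 ± 0.19, which had an unadjusted p under 0.05 and an adjusted p of 0.301. The creErt2 references, taken over the tdT references, were at -0.50 ± 0.17 (adjusted p = 0.197).

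Nlgn3 (chrX:101299168-101325963, plus strand) had 141, 125 and 161 CPM in Hoxa5tdTomato, against 148, 167 and 139 CPM in the creErt2 references. The values were, in the libraries labelled Math1Hoxa5-IRES-GFP, 287, 195 and 173 CPM, against 173, 219 and 214 CPM in the tdT references. These groups overlapped within both sets, at -0.09 ± 0.19 (adjusted p = 0.983) and 0.12 ± 0.19 (adjusted p = 0.843). The creErt2 references lay below all tdT references, at -0.42 ± 0.19 (adjusted p = 0.373).

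Summed over the 3 neuroligins, the level was 58.8 ± 5.05 CPM per kb in Hoxa5tdTomato, against 63.9 ± 5.21 in the creErt2 references. It was 88.3 ± 4.76 in the libraries labelled Math1Hoxa5-IRES-GFP, against 90.4 ± 6.58 in the tdT references (SD, n = 3 each). The lowest value of set 2 (83.4) was above the highest of set 1 (67.1), whichever group a library belonged to. The shares within the sum were alike across groups in their means, with Nlgn1 at 12.0 to 14.2% and Nlgn2 at 43.9 to 46.3% in the 4 groups. Between the creErt2 and tdT references, 0 of the 9 genes passed the edgeR threshold, where 1.34% of tested genes were called; 4 of the 9 (the 3 neuroligins and Lrrtm2) had an unadjusted p under 0.05, as did 12.9% of tested genes.

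**Figure D4:**
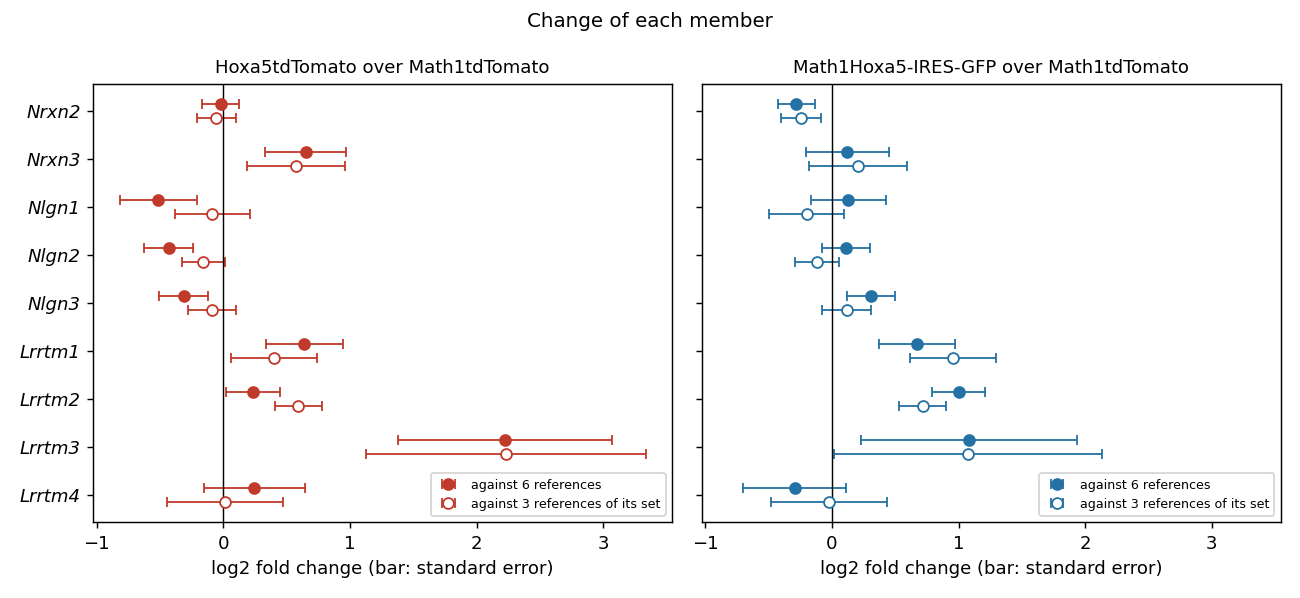
Log2 fold change of each gene (x axis; bars, standard error) in Hoxa5tdTomato (left) and in the libraries labelled Math1Hoxa5-IRES-GFP (right), over all 6 references (filled) and over the 3 references of the set (open). For the 3 neuroligins in Hoxa5tdTomato the values over all 6 references (-0.51, -0.43 and -0.31) lie farther from 0 than those within the set (-0.09, -0.16 and -0.09).

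Whether the effects of the 2 groups within their sets differed was tested as the difference of the effects, Hoxa5tdTomato minus Math1Hoxa5-IRES-GFP. None of the 9 genes passed in edgeR, nor did any of the 14732 tested (0%), and 0 of the 9 had an unadjusted p under 0.05, against 1181 of all genes. The difference was -0.12 ± 0.26 for Lrrtm2 (adjusted p = 0.937), 1.16 ± 1.50 for Lrrtm3 (adjusted p = 0.891) and 0.37 ± 0.54 for Nrxn3 (adjusted p = 0.906). A change past the threshold in 1 comparison is thus not shown to differ from the other. DESeq2 was not run for this difference.

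Math1Hoxa5-IRES-GFP replicate 3 was the lowest of all 12 libraries for 3 of the 9 genes (Nrxn3, Lrrtm3 and Lrrtm4), and it was the lowest for 25.7% of all tested genes. It held 9.18 CPM of Lrrtm4, against 21.3 to 58.1 CPM in the other 11 libraries. For Lrrtm2 it held 220.1 CPM, the middle value of its group, and without it Lrrtm2 still passed in that group.

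Among 81 genes of the pathway on 6 lists, 78 were tested. In Hoxa5tdTomato 2 rose and 1 fell against the 6 references, with a median log2 fold change of -0.03 beside 0.00 over all genes, where 1.73% of tested genes were called. In the libraries labelled Math1Hoxa5-IRES-GFP 4 rose and 0 fell, with a median of 0.07 beside 0.00, where 1.84% of tested genes were called. Within the sets, in the fit of 4 groups, 1 rose and 0 fell in Hoxa5tdTomato (Lin7a), where 0.557% of tested genes were called. In the libraries labelled Math1Hoxa5-IRES-GFP 3 rose and 0 fell (Dlg2, Mdga2 and Lin7c), where 0.862% of tested genes were called. By list, against the 6 references, in Hoxa5tdTomato 0 rose and 1 fell of 16 neurexin ligands. Of 12 genes listed as intracellular partners of neurexins 2 rose (Lin7a and Tspan7), though Tspan7 encodes a membrane protein. By the same lists, 1 rose of the 16 ligands in the libraries labelled Math1Hoxa5-IRES-GFP and 1 of the 12 listed as intracellular partners. There, 1 of 18 postsynaptic scaffolds and 1 of 5 neuroligin inhibitors and proteases rose as well. None passed in either comparison among 6 splicing regulators of neurexin transcripts and 21 other leucine-rich-repeat and receptor phosphatase organizers.

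Dlg2, the scaffold PSD-93 of the postsynaptic membrane, stood at 996, 1063 and 539.8 CPM in the libraries labelled Math1Hoxa5-IRES-GFP, against 391, 391 and 374 CPM in the tdT references. These libraries lay above all 6 references. It rose by 1.26 ± 0.17 (adjusted p = 0.000490) and within the set by 1.17 ± 0.19 (adjusted p = 0.00586). In Hoxa5tdTomato it stood at 544, 580.0 and 563 CPM, against 354, 343 and 315 CPM in the creErt2 references, also above all references, at 0.64 ± 0.17 (adjusted p = 0.0656).

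Mdga2 stood at 511, 746 and 624 CPM in the libraries labelled Math1Hoxa5-IRES-GFP, against 342, 329 and 373 CPM in the tdT references, with no overlap. It rose by 0.63 ± 0.15 against all 6 references (adjusted p = 0.0375) and by 0.85 ± 0.14 within the set (adjusted p = 0.00586). In Hoxa5tdTomato it stood at 500 to 541 CPM, above all 6 references, at 0.36 ± 0.15 (adjusted p = 0.272). The creErt2 references (452 to 463 CPM) lay above all tdT references, at 0.40 ± 0.14 (adjusted p = 0.198). The difference of the 2 effects within sets was -0.68 ± 0.19 with an adjusted p of 0.510.

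Lin7a, a scaffold that joins Cask under the neurexin tail, was the 1 pathway gene that passed in both comparisons, which share their references. It stood at 117, 126 and 97.7 CPM in Hoxa5tdTomato and at 145, 114 and 91.2 CPM in the libraries labelled Math1Hoxa5-IRES-GFP, against 40.9 to 69.9 CPM in the references. Both groups lay above all references. It rose by 1.01 ± 0.19 (adjusted p = 0.0141) and 1.05 ± 0.19 (adjusted p = 0.00840); within the sets it was at 1.10 ± 0.23 (adjusted p = 0.0384) and 0.96 ± 0.22 (adjusted p = 0.0616).

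Tspan7, a tetraspanin of the cell surface, stood at 140.3, 107 and 120.1 CPM in Hoxa5tdTomato, against 79.1, 73.1 and 81.5 CPM in the creErt2 references, and rose by 0.81 ± 0.19 against all 6 (adjusted p = 0.0375). C1ql3, a secreted synaptic organizer, stood at 18.8, 20.8 and 18.1 CPM in Hoxa5tdTomato, against 42.8, 62.1 and 36.4 CPM in the creErt2 references and 159.9, 88.5 and 120.2 CPM in the tdT references. It fell by 2.15 ± 0.49 (adjusted p = 0.0350), below all references, and the creErt2 references in turn lay below the tdT references. Neither gene passed within the set, at 0.65 ± 0.20 (adjusted p = 0.256) and -1.29 ± 0.41 (adjusted p = 0.256). The libraries labelled Math1Hoxa5-IRES-GFP had the same directions over the tdT references, with no overlap and no call in edgeR. Tspan7 was at 0.54 ± 0.20 there (adjusted p = 0.265) and C1ql3 at -1.18 ± 0.40 (adjusted p = 0.206). The differences of the 2 effects within sets were 0.11 ± 0.29 (adjusted p = 0.949) and -0.11 ± 0.56 (adjusted p = 0.980). Fam19a1, a secreted protein that binds neurexins, stood at 68.1, 69.2 and 78.3 CPM in the libraries labelled Math1Hoxa5-IRES-GFP, against 18.4, 32.8 and 41.7 CPM in the tdT references. It rose by 1.34 ± 0.25 (adjusted p = 0.00985), and was at 1.22 ± 0.30 within the set (adjusted p = 0.0784). In Hoxa5tdTomato Fam19a1 went the other way, at 18.3, 16.8 and 22.0 CPM, below the creErt2 references (30.2, 22.5 and 24.2 CPM). It was not called there, at -0.57 ± 0.27 against all 6 references (adjusted p = 0.340) and -0.43 ± 0.30 within the set (adjusted p = 0.794). For Fam19a1 the difference of the 2 effects within sets was -1.65 ± 0.43 (adjusted p = 0.451).

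**Figure D5:**
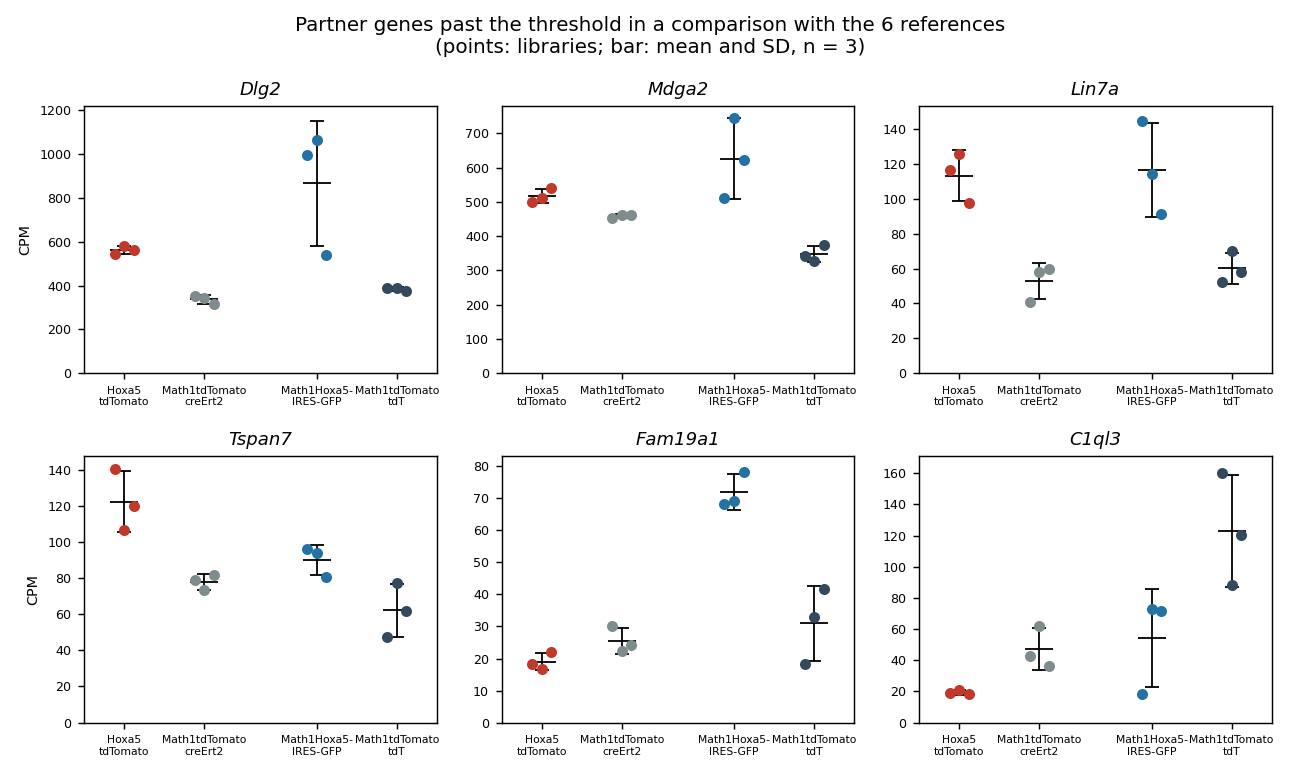
CPM of the 6 pathway genes past the threshold in a comparison with the 6 references, in each library (points), with the mean and SD of each group (bars, n = 3). Dlg2, Mdga2 and Fam19a1 stand above all references in the libraries labelled Math1Hoxa5-IRES-GFP, Lin7a stands above them in both groups, and C1ql3 is at 18.1 to 20.8 CPM in Hoxa5tdTomato, below all references.

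Over the 12 libraries, the genes whose log2 CPM was most like that of Lrrtm2, among 9394 genes with a mean of 10 CPM or more, were Peg3 (Pearson's r 0.927, Spearman's rho 0.902), L1cam (0.923 and 0.916) and Atp2a2 (0.913 and 0.860). Peg3 encodes an imprinted zinc finger protein, L1cam an axonal adhesion molecule and Atp2a2 a calcium pump of the endoplasmic reticulum. Peg3 averaged 582 CPM in the libraries labelled Math1Hoxa5-IRES-GFP, against 398 CPM in the tdT references, and 336 CPM in Hoxa5tdTomato, against 294 CPM in the creErt2 references. The libraries share group, set and depth, so these correlations are a description.

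Some reads of these genes could belong to overlapping annotated genes, since strand is not stated. A same-strand transcript shares 41.2% of the annotated exon bases of Nlgn3, and an antisense gene shares 25.1% of those of Lrrtm4 (chr6:80018877-80810143, plus strand). Partners on the opposite strand share 9.16% of the exon bases of Nlgn1, 4.94% of those of Nrxn2 (Slc22a12) and 3.48% of those of Nrxn3. The values of these 5 genes, and of Lrrtm2 beside Ctnna1, are uncertain; a share of exon bases is not a share of reads, and how many reads are affected was not tested.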

How the data were processed

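The authors deposited raw counts per gene, with no normalization, for 23079 genes and 12 libraries, with a gene length in bases. Per the labels' protocols, 2000 cells per replicate were sorted by FACS, the RNA equivalent of 1000 cells was amplified (SPIA), and TruSeq Nano libraries were made from 1 ng of cDNA. The submitters' processing notes name mm10 and bcl2fastq 1.8.4; how reads were aligned and counted, and whether by strand, is not given in the sources used here. Reads were amplified and carry no molecular identifiers, so total counts overstate the number of molecules seen.

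Rows without a symbol (15) stayed in the fits. Genes were filtered with filterByExpr at a minimum count of 10 and scaled with TMM factors, and CPM is relative to the scaled library size. Groups (1 mean each, the 6 references pooled) were compared in edgeR 4.0.16 (R 4.3.3) by its quasi-likelihood test, with Benjamini-Hochberg adjustment over 14732 genes and a threshold of 0.05. Log2 fold changes are given ± SE, and means ± SD. A fit of 4 groups split the references by column name, and DESeq2 1.42.0 was an alternative. The script was tested on simulated data. Deviations of same-numbered libraries correlated at -0.03 to 0.05, and those of other libraries of a set at -0.10 to 0.09. These few pairs cannot decide whether numbers pair samples, and the main fit used no pairing. The 9 genes and all lists were chosen with earlier results of these data known. Named genes were the 9, Hoxa5, the alpha-catenin genes, pathway genes past the threshold, and the 3 genes most correlated with each gene called.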

Additional observations from a re-analysis of the deposited data

How the results depend on the processing

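The call of Lrrtm2 in the libraries labelled Math1Hoxa5-IRES-GFP held in 17 of 21 alternatives and its direction in all 21, from 0.72 to 1.11 (adjusted p 0.000695 to 0.502). Those 17 all pooled the references, whose 2 kinds differed for Lrrtm2 at -0.64 ± 0.19 (creErt2 over tdT). Of the 21, no fit within the sets kept the call, and variants of the 4-group fit were not among them. Against 1 in the analysis reported, members called in Math1Hoxa5-IRES-GFP fell to 0 in the 4 groups and with the replicate block. They also fell to 0 in the set alone and without replicate 1 of that group. In Hoxa5tdTomato they were 3 in the set alone, 2 in the 2 groups alone and 0 to 1 when each library was left out. The difference of the 2 effects called 0 throughout, and the comparison of the references 0 to 1 when each library was left out, 1 being without Math1Hoxa5-IRES-GFP replicate 3. Genes called in Hoxa5tdTomato numbered 255, against 622 with DESeq2, 72 with the replicate block, 980 in the set alone, 735 in the 2 groups alone, 82 in the 4 groups and 35 to 728 when each library was left out (728 without Math1Hoxa5-IRES-GFP replicate 3, and 36, 35 and 52 without Hoxa5tdTomato replicates 1, 2 and 3). For Math1Hoxa5-IRES-GFP they numbered 271, against 831, 77, 10, 166 and 127 in the same order, and 190 to 575 when each library was left out (575 without its replicate 1). Library size as the only scaling moved the median of all genes to 0.16 in Hoxa5tdTomato and -0.13 in Math1Hoxa5-IRES-GFP, and the split of calls there to 105 higher and 94 lower, against 191 and 80. No call of the other 8 genes was gained in Math1Hoxa5-IRES-GFP.

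Changes of sign concerned uncalled values. Nrxn2 in Hoxa5tdTomato was at 0.0101 with DESeq2 size factors and with DESeq2, 0.14 with library size only, 0.0027 in the 2 groups alone, 0.0023 on thinned counts, and -0.12 to 0.041 when each library was left out. In Math1Hoxa5-IRES-GFP the replicate block gave -0.035 for Nrxn3, -0.28 for Nlgn1, -0.12 for Nlgn2 and -0.47 for Lrrtm3; the set alone gave -0.19 for Nlgn1 and -0.11 for Nlgn2; the 4 groups gave -0.20 for Nlgn1 and -0.12 for Nlgn2; library size only gave -0.014 for Nlgn2. When each library was left out, Nrxn3 ran from -0.38 to 0.54, Nlgn1 from -0.14 to 0.43, Nlgn2 from -0.0023 to 0.20, Lrrtm3 from -1.90 to 1.65 and Lrrtm4 from -0.58 to 0.14. The causes were not tested. Whether shared replicate numbers pair the libraries of a set is not known, with correlations of deviations of -0.03 to 0.05 between same-numbered libraries. With the replicate block, fitted within the sets in edgeR, Lrrtm2 was at 0.72 (adjusted p = 0.179). The fit within the sets with no block already lacked its call (adjusted p = 0.0954). Libraries left out singly leave groups of 2. The low counts of Lrrtm3 (4 to 450) limit what can be said of it.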
